A study of Bos grunniens with 6 samples.

Results

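In the small-RNA table of cultured yak hair follicle cells, 90 predicted miRNA entries, named with a running number and with no cattle miRNA name, had at least 1 RPM (an entry's reads scaled to a library total of 1000000) in 3 or more of 6 libraries. They are 90 of 2096 predicted entries and of 2853 entries in all. The entries were selected on these values, so their presence above 1 RPM is a description and not a finding. The cells were wild-type (WT) cells of yak (Bos grunniens) skin, isolated and cultured in DMEM/F12 medium with serum, IGF1, EGF and antibiotics. Dermal papilla cells, a mesenchymal group enclosed by the hair bulb, gave 3 libraries, and hair matrix cells, the epithelial cells around the papilla that form the hair shaft, gave the other 3. Both cell types received the same medium, and the labels call the libraries biological replicates without naming animals, ages or cultures, so p-values measure only the spread between these libraries, which may be technical. The series asks how miRNA levels of these 2 cell types compare.

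A miRNA is cut from a hairpin precursor, which can yield a product from each arm. The arm that accumulates is called mature and its partner the star, and the predicted entries carry these labels. Bases 2 to 8 of the product, the seed, do most of the pairing with target mRNAs. The family of miR-2284 and miR-2285 is a large ruminant family with many near-identical copies. The miR-200 family and miR-183 are known from epithelial cells, miR-203 from differentiating keratinocytes, and miR-134 from the imprinted DLK1-DIO3 locus, which is active in many mesenchymal cells.

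The called predicted entries with the largest change in each direction are shown first. Several of them met the threshold through libraries of 1 cell type only, which fixed their direction, as given for each below. Each is written 5′ to 3′ as listed, with T for U, and the seed is in capitals. A pair of names joined by a slash is 1 sequence listed under both predicted hairpins. These 8 were higher in hair matrix cells.
novel611_mature: gTGAAATGtttaggaccact
novel23_mature: aACTTTTGcccctagtaacggact
novel1012_mature/novel1019_mature: cAGCACTGtccggtaagatgt
novel766_mature: aAGTGTGGcgggctacagtc
novel29_star: gGGGGCCGaggcactgtccgaga
novel21_mature: tTCTGCCCctcggtgtgcgacgcc
novel672_star: aGTGGTCCtaaacatttcacaa
novel85_mature: tGCTATCTctataagtatcgga

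The 8 entries higher in dermal papilla cells follow in the same form. Their seeds are all different from each other and from the seeds above.
novel1318_mature/novel1379_mature: aAAACCTCaacgaactctttgg
novel18_mature: tGTGTGACtggttgaccagagc
novel613_mature/novel740_mature: gAAATCCGaacgaacttttt
novel49_mature: tCAATGGAtacgaatctgagct
novel1429_mature: aGATGTGAtgacctcctgagg
novel1435_mature: tTCTTGACtgctcacctgggct
novel1162_mature: tCGGACCCcgcggagccgcgga
novel1462_mature: tCTCCCTTggaggcgtgggt

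Some predicted entries were reverse complements of another entry. In the pairs below, the capitals mark the bases that are reverse complementary between both sequences of a pair. They are shown because, over the marked bases, only the strand separates such entries, although their ends differ.
novel611_mature: GTGAAATGTTTAGGACCACT
novel672_star: AGTGGTCCTAAACATTTCACaa
novel5_mature/novel6_mature: TTCTCAGGTTGGACAGTCCTg
bta-miR-1388-5p: AGGACTGTCCAACCTGAGAAt
novel268_mature: ttcgcTCCCCACAGACCCAGAGCCG
bta-miR-760-3p: CGGCTCTGGGTCTGTGGGGA
novel1026_mature: TGAGGGGCCTCAGACCGAGCTTt
bta-miR-423-3p: AAGCTCGGTCTGAGGCCCCTCAgt
novel1012_star/novel1019_star: CATCGTTACCAGACAGTGTTAga
bta-miR-200a: TAACACTGTCTGGTAACGATGtt
novel1417_star: GTGAATTCTACCAGTGCCATAcac
bta-miR-183: TATGGCACTGGTAGAATTCACtg

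Others were the same sequence with a longer 3′ end, and here the capitals mark the added bases. These are shown because a read of the shorter entry is contained in the longer one.
novel1255_mature: cgacttctggggagcctggtgt
novel4_mature: cgacttctggggagcctggtgtG
novel639_mature: ttcgtgggctctagagcatgg
novel1499_mature: ttcgtgggctctagagcatggGCT
novel1915_mature: tagatctggggtagggcctgggaa
novel9_mature/novel774_mature: tagatctggggtagggcctgggaaT

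The libraries held 23904796 to 24693655 reads, so 1 RPM corresponded to 23.9 to 24.7 reads, and listed entries took 71.7% to 73.5% of them. The cells were checked against marker miRNAs. All 6 mesenchymal entries (miR-214, miR-199, miR-145 and miR-143) were called higher in dermal papilla cells, where they summed to 88412.6 to 91201.1 RPM against 1203.74 to 1421.05 RPM in hair matrix cells. All 6 epithelial entries (the miR-200 family and miR-205) were called higher in hair matrix cells, with 22063.8 to 22261.3 RPM against 82.9 to 107.6 RPM. Of 4 skeletal muscle entries 1 was tested, and it was called higher in dermal papilla cells, with sums of 57.9 to 72.7 RPM against 24.6 to 26.3 RPM. Blood, endothelial and neural or melanocyte markers, 8 entries in all, gave no call, but only 2 of them were tested. The blood entries, nearly all miR-451, summed to 17.5 to 20.2 RPM in dermal papilla and 7.98 to 11.2 RPM in hair matrix cells, and the endothelial ones to 3.68 to 4.70 and 2.57 to 4.01 RPM. The neural or melanocyte entry did not exceed 0.0810 RPM. The part of other cell types in the results below was not tested.

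The 90 predicted entries held little of the RNA. Their reads summed to 425.5 ± 8.28 RPM (SD, n = 3) in dermal papilla cells and 539.4 ± 23.5 RPM (SD, n = 3) in hair matrix cells, which is 0.0586% ± 0.00180 and 0.0743% ± 0.00296 of the listed reads. The median of their mean levels was 1.86 RPM, against 14.4 RPM for the 413 cattle-named entries that met the same threshold. Of the 90, 11 had a mean of 10 RPM or more, 47 a mean under 2 RPM, and novel611_mature was the only 1 to reach 100 RPM in a library. At the edge of the choice, novel100_mature and novel1230_mature had 1.04 RPM as the lowest of their 3 highest values, while novel551_mature and novel33_mature, just outside, had 0.958 and 0.939 RPM.

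On the log2(RPM + 1) scale, on which 2-fold was set and which understates changes of low entries, a minority of predicted entries was called, and more of the calls were higher in hair matrix cells. By limma, 30 of 90 (33.3%) were called (2-fold or more, with an adjusted p below 0.05), against 45.1% of all 503 entries tested. In hair matrix cells 22 (24.4%) were higher, beside 19.9% of all entries, and in dermal papilla cells 8 (8.89%) were higher, beside 25.2% of all entries. The median log2 change, dermal papilla minus hair matrix throughout, was -0.37 for the 90 and -0.01 for all 503. The other 60 entries comprised 38 with an adjusted p under 0.05 but less than 2-fold on the log2(RPM + 1) scale, and 22 with an adjusted p above it. By ratio of mean RPM, 53 of the 90 differed by 2-fold or more, 21 of these 38 among them. The same count was not made over all 503 entries, so it describes the 90 only. Tested on whole reads with edgeR and DESeq2, 57.8% and 56.7% of the 90 were called. These shares were close to those of all 503 entries with the same tests. The smaller share of predicted entries called in either direction was thus seen on the log2(RPM + 1) scale and not in the tests of whole reads. The lean of their calls to hair matrix cells was seen in all 3 tests. Values did not overlap between the cell types for 70 of 90 (77.8%), beside 84.1% of all tested entries. In bulk samples such as these, fewer cells of a type and less RNA per cell cannot be told apart.

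The threshold itself fixed the direction for some of these entries. Of the 90, 27 met it through hair matrix libraries only, 16 of them called, and 8 met it through dermal papilla libraries only, 5 of them called. The other 55 reached 1 RPM in at least 1 library of each cell type, with 6 called higher in hair matrix and 3 in dermal papilla. This does not free all of them from the choice. Of the 6, novel23_mature reached 1 RPM in 1 dermal papilla library and novel1722_mature in 2, so both needed hair matrix libraries to meet the threshold. Centring values on each library's median moved the median change of all 503 entries to -0.29. Of the 90, 5 were then called higher in dermal papilla and 32 in hair matrix. So 86.5% of calls were higher in hair matrix instead of 73.3%. Calls over all 503 moved the same way, from 127 higher in dermal papilla and 100 in hair matrix to 109 and 137.

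**Figure D1:**
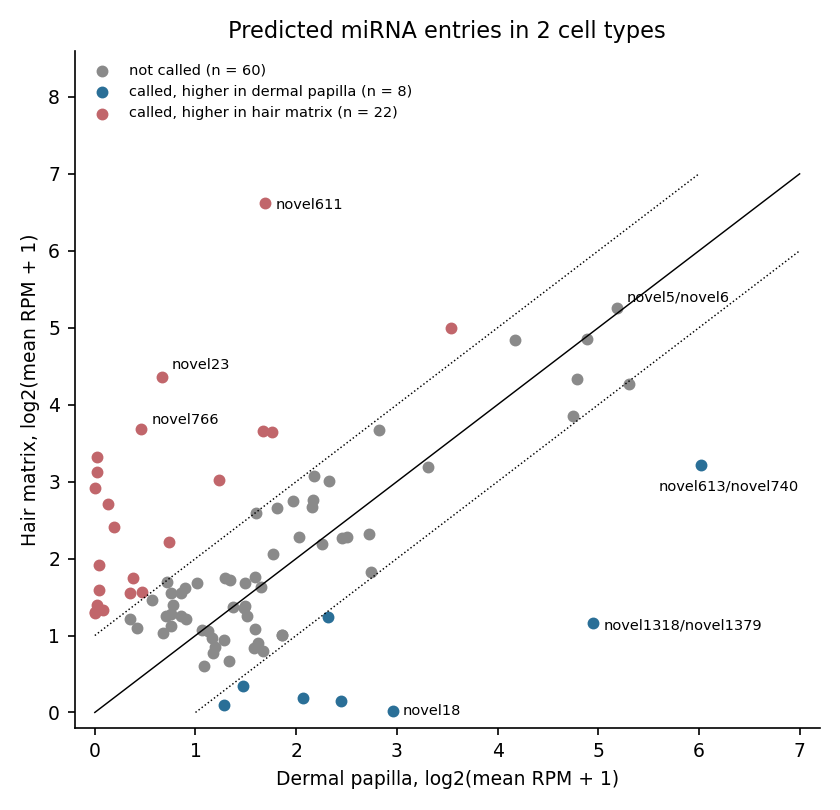
Mean level of each of the 90 predicted entries in dermal papilla (x axis) and hair matrix cells (y axis), both as log2(mean RPM + 1), 1 point per entry. The solid line marks equal levels and the dotted lines a 2-fold difference on this scale; 22 called entries lie above the lines, led by novel611, and 8 below them.

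novel611_mature, whose bases are those known for the start of miR-203, stood at the head of the hair matrix entries. It measured 2.93, 1.80 and 1.94 RPM in the dermal papilla libraries and 108.4, 85.03 and 99.89 RPM in the hair matrix libraries. All hair matrix values lay far above all dermal papilla values, a 44.0-fold ratio of means, with a log2 change of -4.95 ± 0.15 (SE) and an adjusted p of 6.2e-08 (limma). No cattle-named entry called miR-203 is among those analysed here. Its star, novel611_star, lay between 0.0833 and 0.286 RPM in hair matrix cells and at 0 in dermal papilla cells.

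The reverse complement of novel611_mature was listed too. novel672_star, which pairs with it over 20 bases without a mismatch, had 0.125, 0.125 and 0.0412 RPM in dermal papilla and 5.99, 5.02 and 5.58 RPM in hair matrix cells. The log2 change was -2.57 ± 0.09 (limma adjusted p 1.17e-07). The other arm of that hairpin, novel672_mature, chosen for mention after its values were seen, is in turn the reverse complement of novel611_star and was also called, at 0.0279 ± 0.0483 RPM in dermal papilla and 2.79 ± 0.996 RPM in hair matrix cells (SD, n = 3). Both novel672 arms met the threshold through hair matrix libraries alone, which fixed their direction. All 4 arms of both hairpins were at 2.93 RPM or less in every dermal papilla library.

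Another 5 predicted entries were above 10 RPM in at least 1 hair matrix library and called higher there. novel23_mature had 1.00, 0.334 and 0.412 RPM in dermal papilla cells against 20.6, 19.4 and 18.5 RPM in the hair matrix libraries, for a change of -3.72 ± 0.16 on the log2 scale. For novel766_mature the values were 0.502, 0.501 and 0.124 RPM against 11.6, 11.03 and 13.1 RPM, a change of -3.24 ± 0.14. At 1 RPM in only 1 dermal papilla library, novel23_mature would not have met the threshold without hair matrix libraries. In neither entry did the groups overlap, and the limma adjusted p was 4.04e-07 (novel23_mature) and 3.8e-07 (novel766_mature). The remaining entries of this kind, chosen for mention after their values were seen apart from novel1565_mature/novel1568_mature, were that entry, described below with its reverse strand, novel3_mature (2.18 ± 0.496 against 11.6 ± 0.883 RPM) and novel1658_mature (2.38 ± 0.212 against 11.5 ± 0.747 RPM; SD, n = 3).

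Several hair matrix entries were near or at 0 in dermal papilla cells. novel1012_mature/novel1019_mature gave 8.990, 8.985 and 8.997 RPM in hair matrix cells and a single read in all dermal papilla libraries. The ratio was 648, with a 95% exact counting interval of 116 to 25639, and the log2 change was -3.30 ± 0.07 (limma adjusted p 8.09e-09). novel29_star had 8.34, 7.02 and 7.91 RPM in hair matrix cells and also 1 dermal papilla read, for a ratio of 559 (100.01 to 22137). novel21_mature had 7.49, 6.98 and 5.17 RPM in hair matrix cells and no dermal papilla read, which makes it at least 157-fold higher against a floor of 3 reads over the group. novel85_mature was less extreme, at 0.0837, 0.167 and 0.165 RPM against 4.54, 4.62 and 3.79 RPM. The limma adjusted p of the last 3 was 3.53e-08, 4.67e-07 and 3.47e-07. Intervals and floors cover counting error only, since the reads carry no molecular identifiers in the sources used here. Each met the threshold through hair matrix libraries alone, so its direction was fixed by the choice, as was that of novel766_mature.

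The other hair matrix calls lay at or below 7.54 RPM. Among them novel53_mature/novel152_mature changed by -1.10 ± 0.17 and fell under 2-fold without dermal papilla library 1 (-0.96) or without hair matrix library 3 (-0.99). novel127_mature and novel1417_star, like novel21_mature, had no read in dermal papilla cells. These 3 entries were chosen for mention after their values were seen, and all 3 met the threshold through hair matrix libraries alone.

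In dermal papilla cells the highest of the called entries was novel613_mature/novel740_mature, a relative of the miR-2284 and miR-2285 family. It measured 67.4, 64.5 and 59.2 RPM there and 8.06, 7.64 and 9.08 RPM in hair matrix cells. The groups were well apart, with a 7.71-fold ratio and a log2 change of 2.81 ± 0.09 (limma adjusted p 6.32e-08). novel1318_mature/novel1379_mature had the largest change, 3.79 ± 0.07 (limma adjusted p 2.91e-09). Its values were 30.3, 29.4 and 30.2 RPM in dermal papilla and 1.26, 1.23 and 1.25 RPM in hair matrix cells, 24.1-fold apart and closely spaced within each cell type.

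novel18_mature, which resembles miR-134, gave 5.86, 6.56 and 7.88 RPM in dermal papilla cells and a single read in hair matrix cells, a ratio of 495 (95% exact counting interval 88.5 to 19608). novel49_mature gave 4.31, 4.60 and 4.41 RPM against 0.202, 0.0408 and 0.0833 RPM, and novel1429_mature 2.80, 3.55 and 3.26 RPM against 0.0810, 0.123 and 0.208 RPM. The log2 changes of these 3 were 2.93 ± 0.11, 2.30 ± 0.09 and 1.88 ± 0.10. Their hair matrix values were at most 0.208 RPM, and all 3 met the threshold through dermal papilla libraries alone.

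The last 3 were closer to the 2-fold minimum. novel1435_mature had 1.21, 1.42 and 1.65 RPM against 0.162, 0 and 0.0417 RPM. novel1162_mature had 1.67, 1.67 and 1.98 RPM against 0.243, 0.327 and 0.250 RPM, and novel1462_mature 4.10, 3.59 and 4.29 RPM against 1.26, 1.18 and 1.62 RPM. Their changes of 1.18, 1.12 and 1.09 became 0.91, 0.85 and 0.81 with median centring, which ended all 3 calls. novel1435_mature and novel1162_mature also met the threshold through dermal papilla libraries alone.

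**Figure D2:**
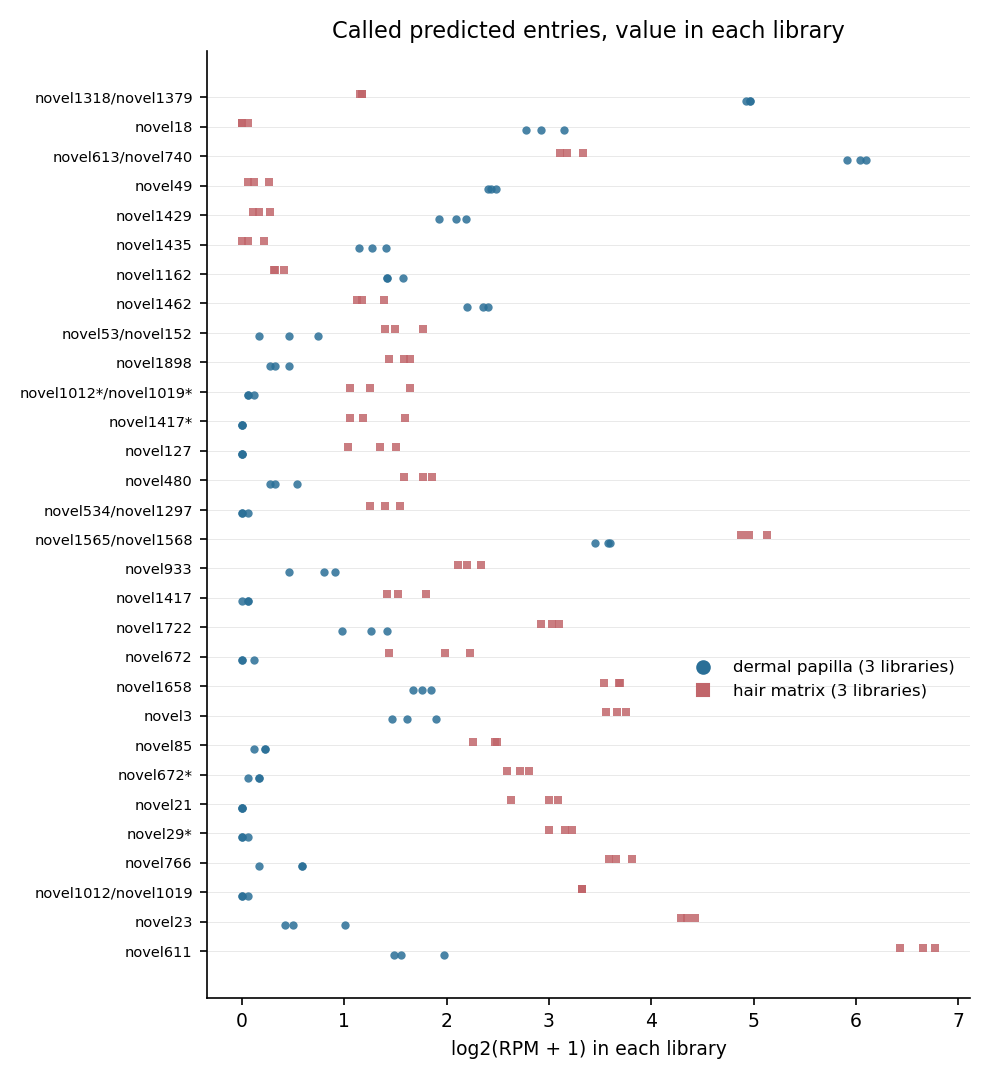
Value of each of the 30 called predicted entries in each library, as log2(RPM + 1) on the x axis, with dermal papilla as circles and hair matrix as squares (3 libraries each) and entries ordered by log2 change. An asterisk marks a star arm; no entry shown has overlapping groups, and the widest gap is that of novel611.

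Several of the most abundant predicted entries were not called. novel5_mature/novel6_mature, the second highest by mean level, had 34.8, 33.7 and 37.5 RPM in dermal papilla cells and 38.8, 35.6 and 37.6 RPM in hair matrix cells. The groups overlapped, and the log2 change of -0.08 ± 0.07 did not pass the test (limma adjusted p 0.335). novel2_mature differed by less than 2-fold, with 15.8, 16.4 and 18.9 RPM against 27.1, 26.4 and 29.8 RPM (-0.68 ± 0.09, limma adjusted p 0.000273). Its star, novel2_star, is the reverse complement of its own mature arm over 21 bases and was lower in dermal papilla cells too, at 3.47 ± 0.378 against 5.38 ± 0.100 RPM (SD, n = 3; log2 change -0.52 ± 0.09, limma adjusted p 0.00107).

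Same-strand overlap with a cattle-named entry, taken as at least 18 aligned bases with at most 1 mismatch, was found for 6 of 90 (6.67%) and for 67 of 2006 (3.34%) predicted entries under the threshold. Of the 6, 5 were relatives of the miR-2284 and miR-2285 family. Differences are given as the cattle-named base, its position counted from the 5′ end of the cattle-named entry, and the predicted base. novel613_mature/novel740_mature differed from bta-miR-2285bg by C4T, and novel781_mature from bta-miR-2285o by C4T. novel679_mature differed from bta-miR-2285cj by G7A and from bta-miR-2285cy by C6T, and novel47_mature from bta-miR-2284x by T18C and from 3 further copies by 1 base each. novel933_mature matched bta-miR-2285ax over 21 bases with no mismatch, starting 1 base later.

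The predicted relatives were not lower than the cattle-named entry in every case. novel613_mature/novel740_mature stood at 63.7 ± 4.17 RPM in dermal papilla cells where bta-miR-2285bg had 0.236 ± 0.128 RPM. In hair matrix cells the 2 values were 8.26 ± 0.742 and 2.44 ± 0.574 RPM (SD, n = 3 for each), so the predicted entry was called higher in dermal papilla and bta-miR-2285bg in hair matrix cells (-1.47 ± 0.14, limma adjusted p 4.08e-05). novel933_mature and bta-miR-2285ax were both higher in hair matrix cells, at 3.65 ± 0.363 against 0.665 ± 0.259 RPM and at 2.08 ± 0.369 against 0.236 ± 0.0652 RPM. Both were called (-1.49 ± 0.13 and -1.31 ± 0.11, limma adjusted p 2.82e-05 and 1.58e-05), and both, like bta-miR-2285bg, passed the threshold through hair matrix libraries alone, so this direction was fixed. novel679_mature, at 2.91 ± 0.159 and 5.73 ± 0.818 RPM, and bta-miR-2285cj, at 1.25 ± 0.465 and 4.38 ± 0.431 RPM, were also both higher there, but novel679_mature missed 2-fold (-0.78 ± 0.11, limma adjusted p 0.000364) while the cattle-named entry was called (-1.28 ± 0.16). For novel47_mature no difference passed the test, at 1.58 ± 0.325 and 1.58 ± 0.525 RPM (0.01 ± 0.16, limma adjusted p 0.946). bta-miR-2284x was called higher in hair matrix cells, at 151 ± 7.89 against 68.6 ± 3.66 RPM (-1.13 ± 0.07). Reads of such near-identical sequences could be divided between entries by the authors' counting, so these levels are uncertain.

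The sixth overlap joins novel18_mature to miR-134. It begins 2 bases before bta-miR-134, shares 20 aligned bases with the difference T20C, and so has another seed. bta-miR-134 was itself listed at 0.209, 0.334 and 0.165 RPM in dermal papilla cells and at 0 in all hair matrix libraries. The predicted entry was thus the more abundant of both in each dermal papilla library.

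novel613_mature/novel740_mature and novel781_mature differ from each other by a single mismatch and share a seed, yet their levels did not run together. novel781_mature had 0.251, 5.10 and 0.206 RPM in dermal papilla cells and 1.05, 1.88 and 1.25 RPM in hair matrix cells. Dermal papilla library 2 stands far above the other two, and the change did not pass the test (-0.18 ± 0.60, limma adjusted p 0.802).

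Overlap with the reverse complement of a cattle-named entry, by the same rule, was found for 8 of 90 (8.89%) and for 52 of 2006 (2.59%) entries under the threshold. Of the 8, 4 were called, a share near the 45.1% of all 503 tested entries, and 3 of the 4 were higher in hair matrix cells. Among these 3, novel1012_star/novel1019_star and novel1417_star met the threshold through hair matrix libraries alone, which fixed their direction. The sources used here do not say how the authors treated strand in counting. The predicted strand ranged from a trace of the cattle-named one to the more abundant of both. In 1 pair the order differed between the cell types: novel781_mature had 1.85 ± 2.81 RPM against 2.02 ± 0.393 RPM for bta-miR-2284h-5p in dermal papilla cells, and 1.39 ± 0.431 against 0.179 ± 0.174 RPM in hair matrix cells (SD, n = 3).

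Traces were seen opposite abundant miRNAs. novel1026_mature, the reverse complement of bta-miR-423-3p over 22 bases, had 1.79 ± 0.386 and 1.56 ± 0.397 RPM in dermal papilla and hair matrix cells, which was 0.0483% and 0.0527% of bta-miR-423-3p. Opposite bta-miR-200a, novel1012_star/novel1019_star had 1.38, 2.12 and 1.08 RPM in hair matrix cells, 0.0208% of the 7362 RPM of bta-miR-200a. In dermal papilla cells, where it had 4 reads in all, it was 0.221% of bta-miR-200a. The same entry pairs with bta-miR-141 over 21 bases with 1 mismatch, at 1.15% of its level in hair matrix and 12.1% in dermal papilla cells. Opposite bta-miR-183, novel1417_star had 2.02, 1.27 and 1.08 RPM in hair matrix cells, 0.0750% of 1944 RPM. These last 2 predicted entries, chosen for mention after their values were seen, were called higher in hair matrix cells, a direction that the threshold had fixed. The cattle-named entries were called with log2 changes of -8.14 (bta-miR-200a) and -8.13 (bta-miR-183).

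The pairing extended to the second arm in some hairpins. novel1026_star was the reverse complement of bta-miR-423-5p over 19 bases, novel268_star of bta-miR-760-5p over 18 and novel5_star/novel6_star of bta-miR-1388-3p over 20, each without a mismatch. The mature arm opposite the star that pairs with bta-miR-200a, novel1012_mature/novel1019_mature, was itself 5.69 times as abundant as its star by mean level.

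In several other pairs the predicted strand was the higher in both cell types. novel613_mature/novel740_mature was 354 and 121 times bta-miR-2284f in dermal papilla and hair matrix cells, and novel781_mature 10.3 and 20.4 times. Each has 1 mismatch to its complement over 18 bases. bta-miR-2284f lay under the threshold, at 0.180 ± 0.0865 and 0.0684 ± 0.0239 RPM (SD, n = 3), so these ratios rest on few reads. novel5_mature/novel6_mature was 11.02 times bta-miR-1388-5p in dermal papilla and 21.6 times in hair matrix cells. The cattle-named strand fell from 3.20 ± 0.550 to 1.72 ± 0.254 RPM in hair matrix cells (log2 change 0.62 ± 0.12, limma adjusted p 0.00229, not 2-fold), whereas novel5_mature/novel6_mature showed no difference past the test. novel1565_mature/novel1568_mature, with 1 mismatch to the complement of bta-miR-2419-3p, was 15.7 and 11.8 times that entry. It had 11.1, 9.90 and 10.9 RPM in dermal papilla and 34.0, 28.4 and 30.0 RPM in hair matrix cells, and both strands were called higher in hair matrix (-1.45 ± 0.09 and -1.10 ± 0.09), bta-miR-2419-3p having passed the threshold through hair matrix libraries alone. novel268_mature, the complement of bta-miR-760-3p, had 23.6, 26.99 and 26.97 RPM against 13.4, 12.3 and 14.7 RPM, 2.17 and 2.28 times its partner. Its change of 0.89 ± 0.09 and that of bta-miR-760-3p, 0.91 ± 0.09, were alike in size and under 2-fold.

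**Figure D3:**
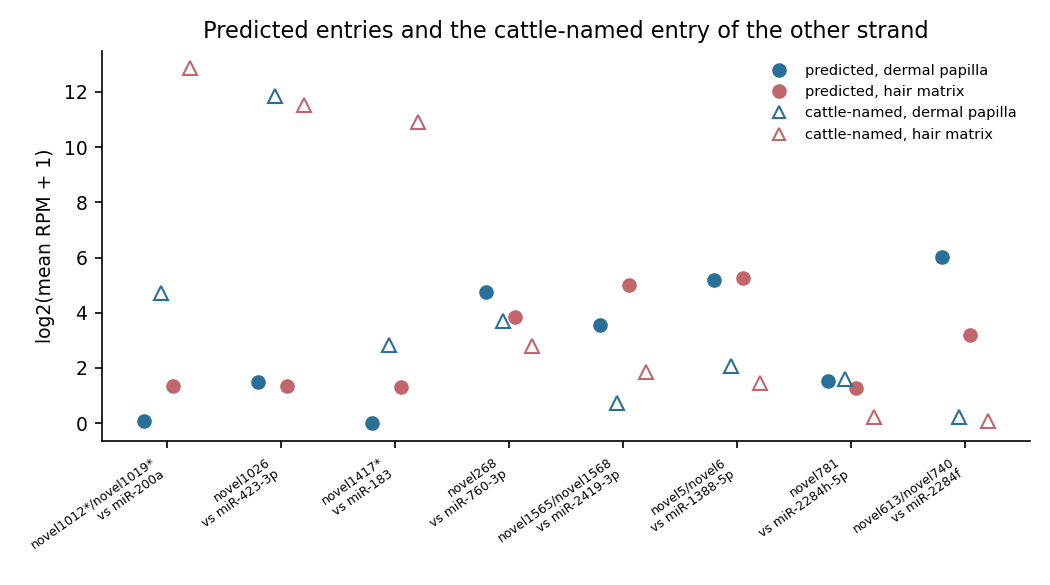
Mean level, as log2(mean RPM + 1), of the 8 predicted entries that are reverse complements of a cattle-named entry (filled circles) and of that entry (open triangles), in dermal papilla (blue) and hair matrix cells (red). Where an entry pairs with several, the cattle-named entry highest in hair matrix cells is drawn. The predicted strand lies far below the cattle-named strand opposite miR-200a, miR-423-3p and miR-183. It lies above opposite miR-760-3p, miR-2419-3p, miR-1388-5p and miR-2284f.

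In the most abundant nested pair the split between both entries varied from library to library. novel1255_mature had 61.3, 1.96 and 52.4 RPM in dermal papilla libraries and 25.8, 28.0 and 1.08 RPM in hair matrix libraries. novel4_mature, 1 base longer, had 2.43, 63.2 and 14.3 RPM and 11.3, 9.39 and 36.5 RPM. The longer entry thus held 3.81%, 96.99% and 21.4% of the pair in dermal papilla and 30.5%, 25.1% and 97.1% in hair matrix cells, with dermal papilla library 2 and hair matrix library 3 opposite to the rest.

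Their sum was nearly constant within a cell type, at 63.8, 65.2 and 66.6 RPM in dermal papilla and 37.1, 37.4 and 37.6 RPM in hair matrix cells. The coefficient of variation of the sum was 2.22% and 0.696%, against 79.4% to 121% for the entries taken singly. Summed, the pair was higher in dermal papilla cells, by 0.79 ± 0.06 on the log2 scale (limma adjusted p 4.28e-06), which is under 2-fold. Singly, neither passed, at 0.87 ± 1.45 (adjusted p 0.595) and -0.17 ± 1.04 (adjusted p 0.888).

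The pair of novel639_mature and novel1499_mature, 3 bases longer, behaved in a like way on a smaller scale. The shorter entry had 0.335, 7.85 and 1.07 RPM in dermal papilla and 0.526, 10.3 and 0.708 RPM in hair matrix cells, highest in library 2 of each cell type. The sum ran from 29.6 to 34.1 RPM over all 6 libraries, and no difference passed the test (log2 change -0.00 ± 0.08, limma adjusted p 0.957). For novel1915_mature and novel9_mature/novel774_mature, 1 base longer, the longer held 72.4% to 86.4% in every library, and the sum was 6.95 ± 0.465 against 3.27 ± 0.849 RPM (SD, n = 3), a change of 0.91 ± 0.15 (limma adjusted p 0.000685). Here the split was steady, and in hair matrix cells the sum varied more (coefficient of variation 25.9%) than the longer entry alone (19.9%). The last pair was chosen for mention after its values were seen, and summing was chosen after seeing the data.

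The first pair spread most between libraries among the 90 entries. The variance of an entry's reads over the libraries of a cell type, relative to that of counting alone, had a median of 1.27 in dermal papilla and 1.45 in hair matrix cells. It was 935 for novel4_mature and 636 for novel1255_mature in dermal papilla cells, and 0.774 for their sum.

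**Figure D4:**
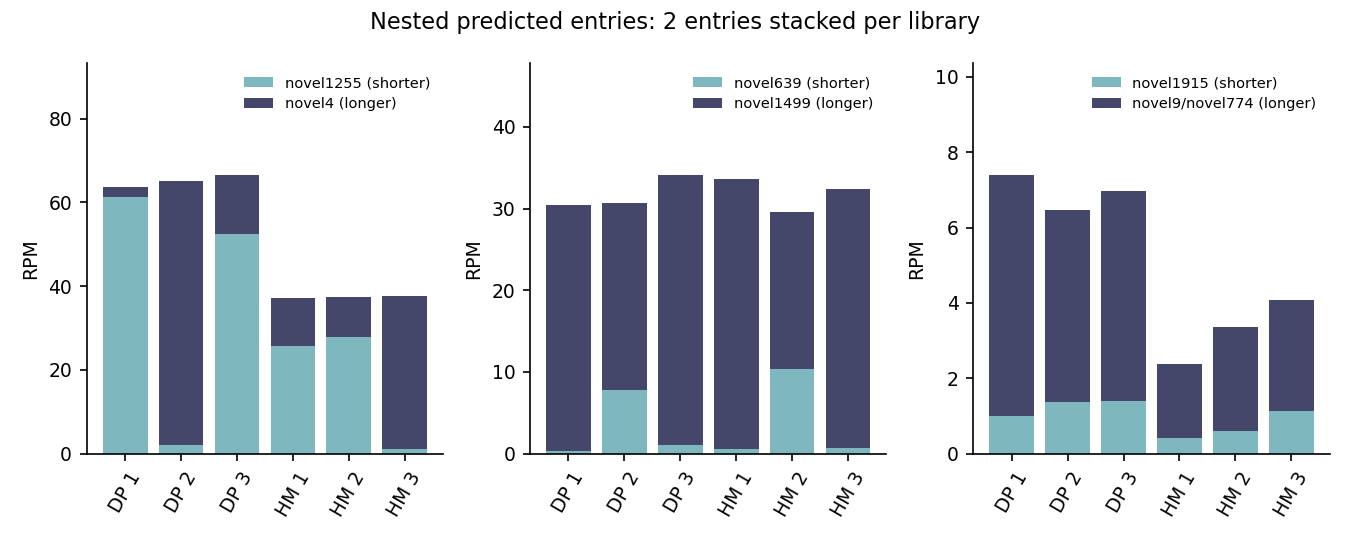
Stacked levels, in RPM, of the shorter and the longer entry of 3 nested pairs in each dermal papilla (DP) and hair matrix (HM) library. In the first panel the split between the entries changes from library to library while the bar heights stay at 63.8 to 66.6 and 37.1 to 37.6 RPM.

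Few predicted entries shared a seed with a cattle-named entry, the only known miRNAs compared here. Bases 2 to 8 matched those of a cattle-named entry for 7 of 90 (7.78%), and for 11.1% of the 2006 predicted entries under the threshold. novel5_mature/novel6_mature shared its seed with bta-miR-1388-3p, which its own star complements. novel1722_mature (0.962, 1.67 and 1.402 RPM in dermal papilla, 6.56, 7.15 and 7.54 RPM in hair matrix cells, called at -1.79 ± 0.13) shared one with bta-miR-378d, which was called in the same direction (25.4 ± 2.19 RPM in dermal papilla cells, -1.18 ± 0.08). At 1 RPM in 2 dermal papilla libraries, novel1722_mature would not have met the threshold without hair matrix libraries. novel1026_mature shared a seed with bta-miR-423-5p, and novel866_mature with bta-miR-6119-5p, an entry at 474 RPM on average against 1.10 RPM for the predicted one. Among the 90, 5 seeds occurred in more than 1 entry, 3 of them in the nested pairs and 1 in novel613_mature/novel740_mature and novel781_mature. The last was held by novel21_mature and novel16_mature, named after its values were seen.

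In length the predicted entries ran from 18 to 25 bases with a median of 22. Fewer of them were 22 bases long (35.6%) than of the cattle-named entries (50.8%), and more had 24 bases or more: 22 of 90 (24.4%), against 13.4% of predicted entries under the threshold and 6.78% of cattle-named ones. The range from 20 to 23 bases held 73.3%, 81.0% and 93.2% of the 3 sets. None of the 8 entries called higher in dermal papilla had 24 bases or more, whereas 7 of the 22 called higher in hair matrix and 15 of the 60 uncalled ones did. These shares are descriptions without a test, since the entries share hairpins and sequence.

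T, the usual first base of a mature miRNA, opened 41.1% of the predicted entries, 41.4% of those under the threshold and 42.4% of the cattle-named ones. G and C made up 54.7% of the bases of the 90, 58.0% of those under the threshold and 46.6% of those with cattle names. A G and C content of 70% or more was found in 10 of 90 (11.1%), in 22.2% of predicted entries under the threshold and in 2.18% of cattle-named entries.

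**Figure D5:**
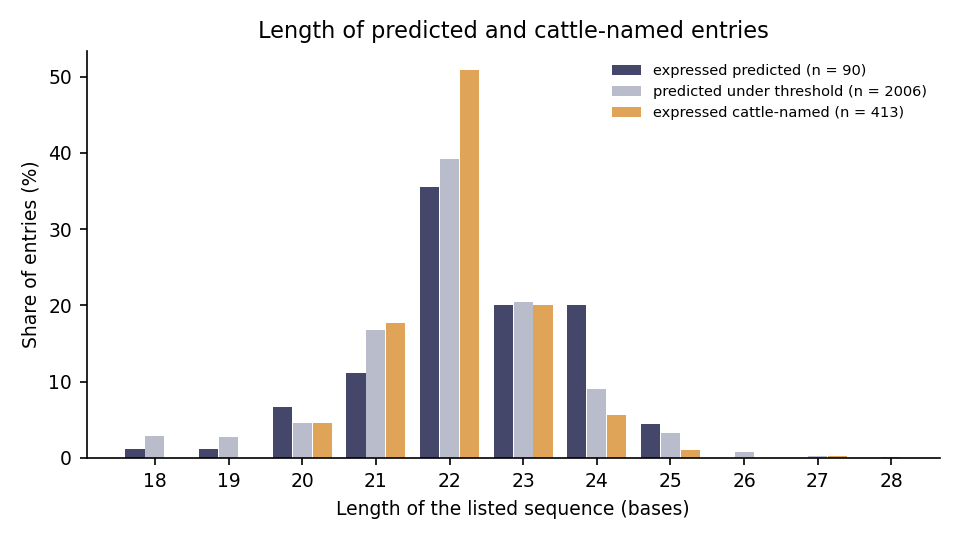
Share of entries (%, y axis) at each length in bases (x axis) for the 90 predicted entries, the 2006 predicted entries under the threshold and the 413 cattle-named entries. The cattle-named set peaks at 22 bases with 50.8%, and the 90 have a second shoulder at 24 bases.

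Of the 90 entries 81 were mature and 9 star arms, and 54 had their other arm listed. The mature arm was the higher in 44 of 45 such cases, but 5 of the 9 star arms exceeded the arm labelled mature. novel29_star, one of the hair matrix entries above, averaged 3.89 RPM over the 6 libraries against 0.245 RPM for novel29_mature, and novel10_star 8.52 RPM against 0.345 RPM for novel10_mature (chosen for mention after its values were seen). By ratio of means, the median excess over the other arm was 22.5; the rule asked 1 RPM of the entry and nothing of its other arm, so this excess is not independent of the choice.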

How the data were processed

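Total RNA went into TruSeq small RNA libraries, per the labels' protocols. Trimmomatic, HISAT2 (2.2.1.0) and DESeq (1.20.0) were used in roles that the submitters' processing notes leave out. The genome build, the miRNA reference, the strand rule and the treatment of multiply matching reads were not given in the sources used here. In deposited form, the authors' table calls its values TPM, but they are RPM: 100% of values were whole reads within 0.001 read, and whole reads were recovered. The design had assumed TPM, and the test for normalized values was kept. All 6 value columns were used.

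Entries with 1 RPM in at least 3 of 6 libraries (503) were fitted as log2(RPM + 1) with limma 3.58.1 (R 4.3.3), mean trend, cell type as the only term and Benjamini-Hochberg adjustment over the 503. The fit was tested on simulated data. A call needed an adjusted p under 0.05 and 2-fold on that scale, which understates changes of low entries. The members and lists were chosen with earlier results of these data known. Named entries were the 10 most abundant, the 8 largest called changes in each direction, the overlaps with cattle names, 5 each of shared seeds and of uncalled entries by level, 5 near-identical or complementary pairs, and 2 on each side of the threshold; others are said to be chosen later. Sequences and overlaps came from the deposited table. The labels do not say whether replicate numbers pair the libraries, and the main fit used no pairing. Alternatives were pseudocounts of 0.5 and 10, other filters, TMM scaling, median centring, no trend, a replicate block, edgeR 4.0.16 and DESeq2 1.42.0 on whole reads, no fold minimum, other overlap and seed rules, leaving out overlapping entries and each library, and, added after seeing the data, summing nested entries.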

Additional observations from a re-analysis of the deposited data

How the results depend on the processing

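Calls of predicted entries (8 higher in dermal papilla, 22 in hair matrix) moved with several choices. They became 2 and 3 with a pseudocount of 10, 2 and 6 with a filter of 10 RPM, 16 and 36 with edgeR and 17 and 34 with DESeq2 on whole reads, and 21 and 47 with no fold minimum. Median centring gave 5 and 32. All 30 calls remained with edgeR and DESeq2, and 5 with the pseudocount of 10. With edgeR and DESeq2, 57.8% and 56.7% of the predicted entries were called, close to the shares of all tested entries. The contrast of 33.3% with 45.1% in the main fit was therefore not kept by these 2 tests. Leaving out 1 library gave 8 to 9 and 22 to 24. Over all tested entries, 127 and 100 calls became 77 and 40 (pseudocount 10), 80 and 47 (10 RPM) and 212 and 204 (no fold minimum), and 125 to 128 and 100 to 104 without 1 library. Over 34 entries named by rule and 613 alternatives in all, changes kept their side of the threshold in 591, lost the call in 17 and gained it in 5. No called entry changed sign; 7 uncalled ones did, in 24 alternatives: novel1026_mature (0.13 to -0.15), novel1255_mature (0.87 to -0.38), novel1499_mature (0.05 to as low as -0.22), novel47_mature (0.01 to -0.26), novel4_mature (-0.17 to as high as 0.89), novel639_mature (-0.09 to 0.85) and novel781_mature (-0.18 to 0.46). Deviations from the group means correlated at 0.141, 0.0798 and -0.275 for same-number libraries, and from -0.430 to 0.388 for different-number ones. With so few libraries these values cannot show whether the numbers pair them. With the replicate block 8 and 22 predicted entries were called, the same 30, and 127 and 101 of all. Overlaps with cattle names fell from 6 to 1 and on the reverse strand from 8 to 5 when no mismatch was allowed, by construction, and shared seeds rose from 7 to 17 with bases 2 to 7. The share of listed reads was 0.0400% in dermal papilla and 0.0480% in hair matrix cells at a threshold of 10 RPM. The causes of the other shifts were not tested. At 3 libraries a group no outlier rule was applied, and entries near 1 RPM rest on about 24 reads a library.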

Other observations

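Near-identical copies were also found below the threshold. Of the 90 predicted entries, 8 matched, without a mismatch over at least 18 bases, a predicted entry that did not meet it. novel21_mature, at 3.27 RPM on average, matched novel1130_mature (0.434 RPM) over 23 bases, and novel47_mature, at 1.58 RPM, matched novel149_mature (0.234 RPM) over 21. Short shared stretches linked other entries: novel40_mature and novel679_mature had 13 bases in common, and novel47_mature held 14 bases that are the reverse complement of bases in novel613_mature/novel740_mature and novel781_mature.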
